A study of Mus musculus with 12 samples.

Results

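The olfactory receptor (Olfr) genes of mouse chromosome 9 were examined in the DNA methylation data of control retinas and retinas with conditional deletion of the TET enzymes. Members were the protein-coding genes of the GENCODE M21 annotation on chromosome 9 whose symbol starts with Olfr, which gave 132 of the 21938 protein-coding genes on the autosomes, X and Y. Each gene was taken with 5 kb on each side, called its locus, and every region of the 2 deposited lists of differentially methylated regions (DMRs) that overlapped a locus was counted. That gave 44 of 786742 regions. Genomic DNA of whole retinas from C57 BL/6J mice at postnatal day 21 was profiled in 12 libraries. Tet tcKO retinas carried loxp/loxp alleles of Tet1, Tet2 and Tet3 and the Chx10-Cre-GFP transgene, which is active in retinal progenitor cells, is mosaic and was bred to carry more than 1 functional Cre copy. Cre- controls were age-matched animals from breeders without Cre. The paper reports more cones and fewer rods in Tet tcKO retinas, so cell composition also differed between the groups. Its part in the levels given here was not tested. Whole-genome bisulfite sequencing (WGBS), which reads 5-methylcytosine (5mC) and 5-hydroxymethylcytosine (5hmC) together, and bACE-seq, which reads 5hmC, each had 3 Cre- and 3 Tet tcKO libraries. Per the paper, retinas of 2 animals were pooled per sample, and both assays used the DNA matched to its RNA samples. The 2 assays therefore did not come from separate material.

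Olfactory receptors are G protein-coupled receptors that sit on the cilia of olfactory sensory neurons and bind odorants. Each such neuron expresses a single receptor gene from a single allele, and the genes lie in clusters, most with their whole coding sequence in 1 exon. TET enzymes oxidise 5mC to 5hmC, a step in the removal of DNA methylation. The retina is not an olfactory tissue, but expression was not analysed here, so whether these genes were silent in the same retinas was not tested.

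The members formed 2 clusters, taking genes less than 1 Mb apart together. The first cluster held 37 genes from Olfr24 to Olfr18 over 1.58 Mb (chr9:18751507-20336094, mm10). The second held 95 genes from Olfr160 to Olfr986 over 2.48 Mb (chr9:37708964-40190134). Of the 132 genes, 125 had a single coding exon, and the coding length ran from 915 to 993 bp with a median of 936 bp. The sequence around them was poor in CpGs, the dinucleotide that carries nearly all 5mC in most tissues. After overlapping loci were joined so that each CpG counted once, the loci held 8534 CpGs, or 4.22 per kb, against 8.26 per kb in the whole genome. Their GC content was 36.8%, against 41.7%, and the ratio of observed to expected CpGs was 0.125, against 0.19. Single loci held 28 to 238 CpGs with a median of 61.5, and the densest locus was that of Olfr986, the last gene of the second cluster, with 12.4 CpGs per kb.

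The called regions were short. Their sequences are shown for the regions of at most 300 bp that had no annotated UTR, coding exons first and then by the size of the deposited area statistic, up to 3 per direction, because the caller asked for several CpGs within a short stretch. All are the plus strand of GRCm38 (mm10), 5′ to 3′, in lower case with each CpG in capitals. The WGBS gains, where Tet tcKO was higher, lay upstream of Olfr976 (6 CpGs, chr9:39961194-39961375), downstream of Olfr986 inside Zfp202 (6 CpGs, chr9:40193086-40193266) and upstream of Olfr984 (5 CpGs, chr9:40117214-40117402).
Olfr976 gain: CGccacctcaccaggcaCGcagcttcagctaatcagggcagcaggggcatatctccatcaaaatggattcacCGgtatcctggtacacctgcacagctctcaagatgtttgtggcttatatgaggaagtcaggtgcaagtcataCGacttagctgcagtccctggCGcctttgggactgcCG
Olfr986 gain: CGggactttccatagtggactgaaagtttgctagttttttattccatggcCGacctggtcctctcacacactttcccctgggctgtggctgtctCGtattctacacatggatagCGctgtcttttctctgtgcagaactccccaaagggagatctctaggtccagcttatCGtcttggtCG
Olfr984 gain: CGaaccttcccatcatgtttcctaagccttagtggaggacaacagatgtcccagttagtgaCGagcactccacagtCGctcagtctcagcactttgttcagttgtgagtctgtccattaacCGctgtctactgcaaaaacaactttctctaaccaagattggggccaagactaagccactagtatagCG

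The WGBS gain with the largest change lay in the intron of Olfr44 and was longer than 300 bp. The 300 bases of it with the most CpGs hold 4 of its 6 CpGs (chr9:39487417-39487716) and were added after the values were seen.
Olfr44 gain: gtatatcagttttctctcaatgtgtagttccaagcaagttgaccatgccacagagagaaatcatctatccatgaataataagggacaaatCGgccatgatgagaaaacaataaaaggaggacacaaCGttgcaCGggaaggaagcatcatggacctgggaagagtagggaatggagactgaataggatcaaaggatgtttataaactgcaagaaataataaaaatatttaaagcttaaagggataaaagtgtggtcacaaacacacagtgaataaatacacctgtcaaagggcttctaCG

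The 3 WGBS losses, where Tet tcKO was lower, are all shown, and all lie in repeats. They lay upstream of Olfr924 (9 CpGs, chr9:38840377-38840520), downstream of Olfr834 (5 CpGs, chr9:18991479-18991595) and in an intron of Olfr18 (4 CpGs, chr9:20322273-20322340).
Olfr924 loss: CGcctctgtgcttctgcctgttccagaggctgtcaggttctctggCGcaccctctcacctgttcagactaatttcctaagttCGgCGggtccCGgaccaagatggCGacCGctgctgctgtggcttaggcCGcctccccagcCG
Olfr834 loss: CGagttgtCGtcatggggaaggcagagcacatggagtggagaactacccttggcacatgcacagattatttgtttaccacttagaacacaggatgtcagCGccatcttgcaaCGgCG
Olfr18 loss: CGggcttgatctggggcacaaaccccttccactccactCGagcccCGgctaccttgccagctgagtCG

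The 5hmC losses shown lay in coding exons, those of Olfr979 (7 CpGs, chr9:40000490-40000736), Olfr986 (6 CpGs, chr9:40187474-40187726) and Olfr847 (4 CpGs, chr9:19375221-19375516).
Olfr979 5hmC loss: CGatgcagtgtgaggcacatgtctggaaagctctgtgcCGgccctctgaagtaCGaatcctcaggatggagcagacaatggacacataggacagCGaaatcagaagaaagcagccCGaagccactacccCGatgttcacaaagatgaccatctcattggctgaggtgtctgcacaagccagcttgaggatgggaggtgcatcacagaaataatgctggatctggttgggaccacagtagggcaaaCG
Olfr986 5hmC loss: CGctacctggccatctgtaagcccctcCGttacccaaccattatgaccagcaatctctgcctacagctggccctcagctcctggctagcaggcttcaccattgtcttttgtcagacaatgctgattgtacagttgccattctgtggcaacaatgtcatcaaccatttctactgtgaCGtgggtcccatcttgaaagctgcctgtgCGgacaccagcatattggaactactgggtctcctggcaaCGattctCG
Olfr847 5hmC loss: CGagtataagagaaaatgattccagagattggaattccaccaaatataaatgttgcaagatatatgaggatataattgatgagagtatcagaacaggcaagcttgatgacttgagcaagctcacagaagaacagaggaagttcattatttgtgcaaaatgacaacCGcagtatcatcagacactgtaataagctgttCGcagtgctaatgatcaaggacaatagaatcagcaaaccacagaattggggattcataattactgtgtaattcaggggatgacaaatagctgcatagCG

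The first question was how much of these loci lay in regions called between Tet tcKO and Cre-. Most of the loci held none: 105 of 132 (79.5%) overlapped no region of either list, where 10.9% of all protein-coding loci overlapped none. A WGBS gain was found at 7 loci (5.3%), where 76.8% of all protein-coding loci had one. A 5hmC loss was found at 23 loci (17.4%), where 88.3% of all protein-coding loci had one. A WGBS loss was found at 3 loci (2.27%), where 4.9% of all had one. No locus held a 5hmC gain, which was rare everywhere, at 0.401% of all protein-coding loci. Olfr874, Olfr44, Olfr957, Olfr984 and Olfr986 were the 5 loci with both a WGBS gain and a 5hmC loss. How many of all protein-coding loci had both was not counted. Loci were not matched for length, and a longer locus has more room for a region. Joined, the 132 member loci covered 2020199 bp, and the 21938 protein-coding loci, longer on average, covered 1185635272 bp.

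Counted by CpG, 44 of the 8534 CpGs (0.516%) lay in WGBS gains, against 8.61% of all reference CpGs. In 5hmC losses lay 235 CpGs (2.75%), against 34.4% of all reference CpGs. In WGBS losses lay 18 CpGs (0.211%), against 0.134% of all reference CpGs. The deposited lists hold 1 mean per group and region, so the spread between the 3 libraries of a group could not be computed and none of these differences was tested. That a locus held no region says only that none was called there.

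Other chemoreceptor genes and genes with similarly few CpGs were set beside the members. Olfr genes on other chromosomes (1003 loci, 5.03 CpGs per kb) had a WGBS gain at 10.4% and a 5hmC loss at 34.6% of loci, with 1.18% and 7.78% of their CpGs inside. The vomeronasal receptor genes Vmn1r and Vmn2r (331 loci, 4.79 CpGs per kb) had them at 7.55% and 25.1% of loci, with 0.565% and 2.93% of CpGs. Thus the members' share of CpGs in 5hmC losses lay near that of the vomeronasal receptors and under that of the other Olfr genes. Among the 12 chromosomes with at least 20 Olfr loci, chromosome 9 had the third lowest share of CpGs in 5hmC losses, after chromosome 2 with 1.76% and chromosome 16 with 2.44%, and chromosome 4 had the highest with 26.4%. For WGBS gains, with 0.516%, chromosome 9 had rank 5 of the 12 from the lowest. The 41 Olfr pseudogenes of chromosome 9 had no WGBS gain, and 7 of them (17.1%) had a 5hmC loss.

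**Figure D1:**
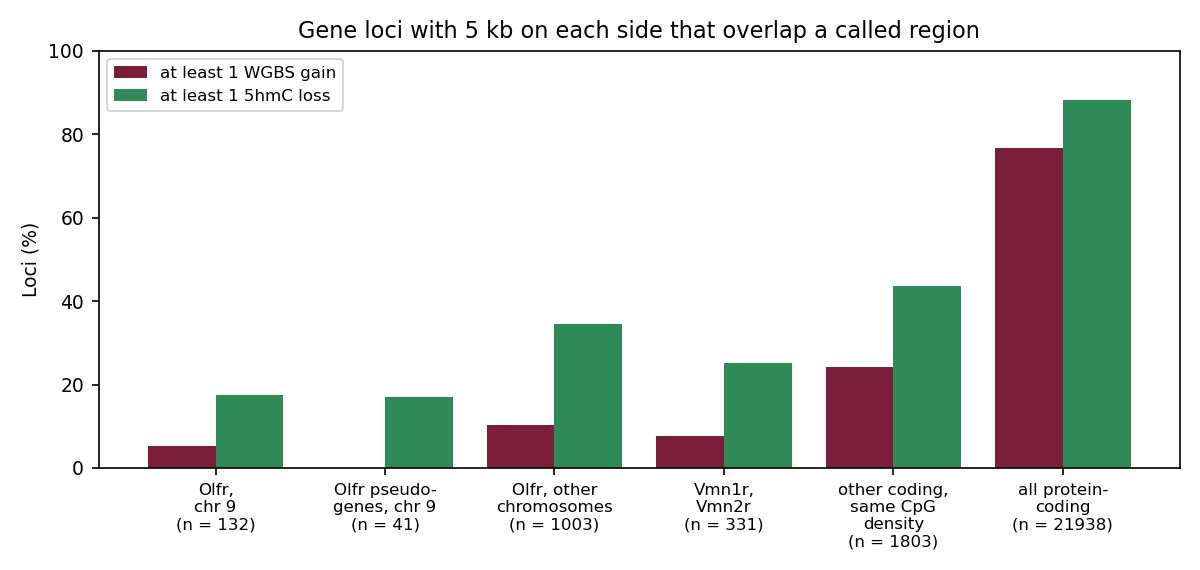
Bars give the percent of gene loci (gene with 5 kb on each side) that overlap at least 1 WGBS gain or at least 1 5hmC loss, for 6 gene groups with their numbers of loci; the bars are counts of loci and have no error. The chromosome 9 Olfr loci stand at 5.3% and 17.4%, all protein-coding loci at 76.8% and 88.3%. Loci were not matched for length between the groups.

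Protein-coding genes other than chemoreceptors whose CpG density lay between 2.92 and 5.69 per kb, the 10th and 90th percentiles of the members, lay in between. These 1803 loci had a WGBS gain at 24.3% and a 5hmC loss at 43.6%, with 2.83% and 11.9% of their CpGs inside. Joined, they covered 161370789 bp, so they were longer on average than the members' loci. On chromosome 9 itself, the 1078 protein-coding genes other than Olfr had 12.2% of CpGs in WGBS gains and 45.7% in 5hmC losses.

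CpG density was then compared CpG by CpG, by counting the CpGs within 250 bp on each side of each CpG, itself included. Of the members' CpGs, 46.6% had at least 4 CpGs in that window, against 84% at protein-coding loci without chemoreceptors. At each number the members' shares in WGBS gains and in 5hmC losses lay under those of the other protein-coding loci. Where the window held 6 to 9 CpGs, 9.3% of the members' CpGs lay in 5hmC losses, against 15.1% at the other Olfr loci, 6.09% at the vomeronasal receptor loci and 58.1% at the other protein-coding loci. The same windows gave 1.56%, 2.17%, 1.06% and 13.7% for WGBS gains. When the other protein-coding loci were weighted to the members' mix of window counts, 30.3% of CpGs lay in 5hmC losses and 6.37% in WGBS gains, against 2.75% and 0.516% at the members. WGBS losses went the other way, with 0.211% at the members and 0.0567% at the weighted other loci. The same weighting gave 0.119% at the vomeronasal receptor loci and 0.00969% at the other Olfr loci. All 18 of the members' CpGs in WGBS losses had 10 or more CpGs in the window. There the shares were 2.15% at the members, 1.01% at the vomeronasal receptors, 0.0474% at the other Olfr loci and 0.37% at the other protein-coding loci. The 18 CpGs lay in 3 regions, all in repeats with many copies. These windows were chosen after the data were seen.

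**Figure D2:**
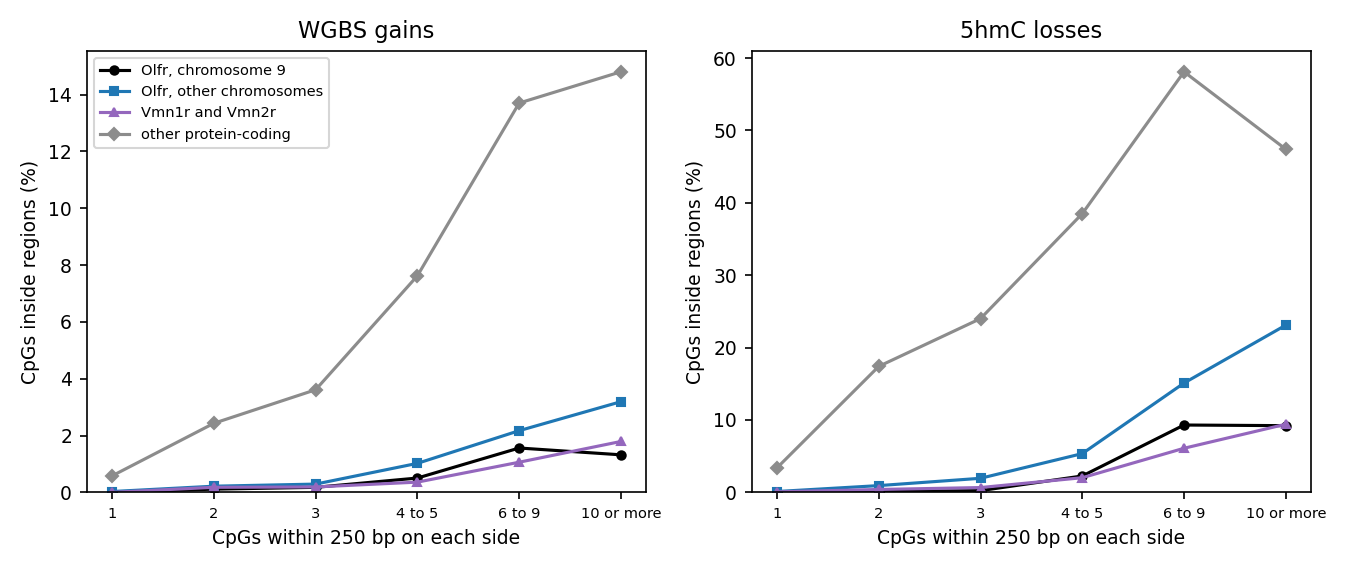
The x axis groups CpGs by the number of CpGs within 250 bp on each side, and the y axis gives the percent of those CpGs inside WGBS gains (left) or 5hmC losses (right). In windows of 6 to 9 CpGs, 9.3% of CpGs at chromosome 9 Olfr loci and 58.1% at other protein-coding loci lay in 5hmC losses.

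The loci with regions had the higher median number of CpGs. The 27 loci with a region had a median of 81 CpGs and 5.09 per kb, and the 105 without had 59 and 3.79 per kb. Split into 4 groups by CpG density, 2 of 33 loci had a region in the sparsest group, 6 of 34 and 5 of 32 in the middle groups, and 14 of 33 in the densest. Loci were also split by how alike the genes are. Among the 57 loci whose coding sequence was at least 90% identical to its closest match in another gene, 13 (22.8%) had a region, and among the other 75 loci 14 (18.7%) had one. Olfr872 with 138 CpGs, Olfr859 with 109 and Olfr951 with 104 were the loci with the most CpGs and no region.

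In bins of 100 kb, the second cluster stood as a low stretch beside both flanks, and the first beside the flank after it only. The flanks also differed in CpG density. Before, inside and after the first cluster there were 5.3, 5.6 and 13.3 CpGs per kb, and for the second cluster 9.05, 4.89 and 11.8. Inside the first cluster 0.167% of CpGs lay in WGBS gains and 2.81% in 5hmC losses. The 1 Mb before it was also low, with 0.396% and 5.24%, and the 1 Mb after it had 7.92% and 40.1%. Inside the second cluster the shares were 1.1% and 3.72%, against 9.22% and 36.1% in the 1 Mb before it and 14.4% and 50% in the 1 Mb after it. One inner bin of the second cluster reached 15.7% in WGBS gains. That bin holds a single listed region between loci, 3827 bp long, that lists 7 CpGs with 90.6% in Cre- and 90.9% in Tet tcKO where the reference has 73. It supplies 73 of the 135 CpGs behind the 1.1%. Without regions that list fewer CpGs than the reference, the second cluster had 0.507% of CpGs in WGBS gains and 3.45% in 5hmC losses, and the first 0.167% and 2.62%.

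**Figure D3:**
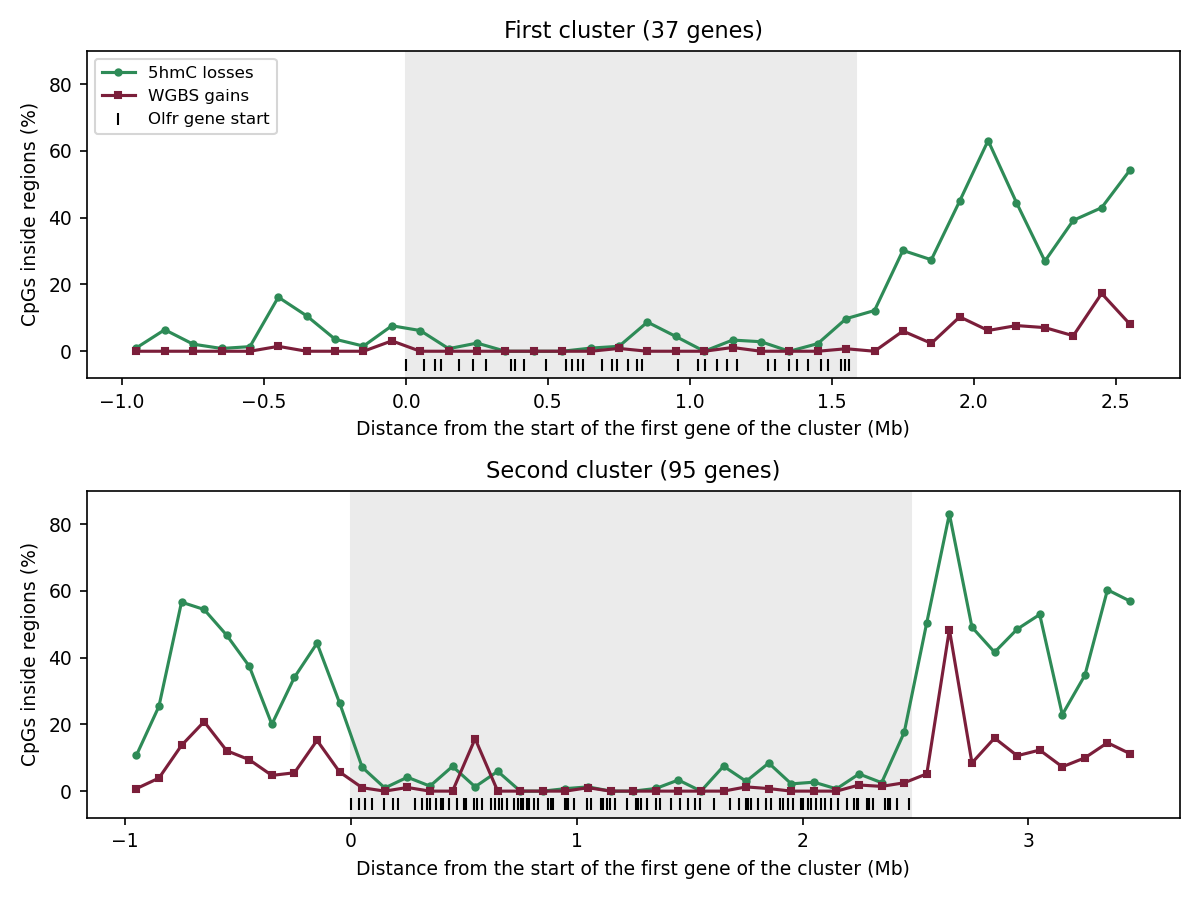
Percent of CpGs inside 5hmC losses (green circles) and WGBS gains (dark red squares) in 100 kb bins, by distance in Mb from the first gene of each cluster; grey marks the span of the cluster and ticks mark gene starts. Inside the clusters 2.81% and 3.72% of CpGs lay in 5hmC losses, in the 1 Mb before them 5.24% and 36.1%, and in the 1 Mb after them 40.1% and 50%.

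The regions were unevenly spread over the clusters, a difference that was not tested. The first cluster had no WGBS gain within 5 kb of a gene, with 1.55% of its CpGs in 5hmC losses at 4 of 37 loci. That share was 0.873% without 1 region in the intron of Olfr18, which spans 17 reference CpGs but lists 4, all in a repeat with 1441 copies. The second had all 8 WGBS gains, at 7 of 95 loci with 0.732% of CpGs inside, and 3.26% of its CpGs in 5hmC losses at 19 loci. Olfr24 and Olfr160, which open the clusters, had no region. Olfr18, which closes the first, had 9.46% of its 222 CpGs in 5hmC losses, or 1.8% without that region, and lies 9042 bp from Zfp560. Olfr986, which closes the second, lies 2182 bp from the zinc finger gene Zfp202, with 6.3% of its 238 CpGs in WGBS gains and 18.9% in 5hmC losses. Without the Olfr986 locus, the members' share of CpGs in WGBS gains was 0.35% and in 5hmC losses 2.29%.

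Over the 8 WGBS gains of the members, the WGBS level went from 64.5% in Cre- to 78.4% in Tet tcKO, weighted by CpGs, a difference of 13.8 percentage points. Over the WGBS gains of all protein-coding loci it went from 56.8% to 74.1%. The direction of these levels was fixed by the choice of gains and was not tested. The gains had 4 to 9 CpGs each, with a median of 5.5.

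The Olfr44 gain in its intron, printed in part above, had the largest change, from 45.1% in Cre- to 75.4% in Tet tcKO over 6 CpGs. A 5hmC loss overlapped it, from 17.9% to 1.97%. Thus in Tet tcKO the same stretch had more WGBS signal and little 5hmC. The gain in the 3′ UTR of Olfr229 went from 74.2% to 91.8% over 4 CpGs, and the gain 3338 bp upstream of Olfr957 from 72.1% to 88.1% over 4 CpGs, and no 5hmC loss overlapped either. The gain downstream of Olfr874 went from 53.9% to 67%, beside a 5hmC loss from 8.11% to 0.899%. The gain upstream of Olfr984 went from 70.9% to 79.1%, inside a 5hmC loss from 12% to 2.84% over 18 CpGs.

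Olfr986 had 2 gains downstream of the gene. The one 1028 bp away went from 87.2% to 96.4% over 9 CpGs, overlapping a 5hmC loss from 25.8% to 6.21% over 14 CpGs, the member region with the largest deposited statistic. The one inside Zfp202 started from the lowest level of the 8, from 20.5% to 31.6% over 6 CpGs, overlapping a 5hmC loss from 9.96% to 2.75%. In all, 5 of the 8 gains overlapped a 5hmC loss. The share of all WGBS gains that overlap a 5hmC loss was not computed, so whether this is usual is not known.

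The remaining gain, at Olfr976, began 61 bp upstream of the annotated start and went from 84.4% to 92.5% over 6 CpGs. All of it is soft-masked as repeat, and the genome holds 2550 other stretches with at least 90% identity over at least 90% of its length. The other 7 gains had no such copy. Reads from copies can be hard to place, and what part this had in the Olfr976 value was not tested.

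The 3 WGBS losses had small changes at high levels, and each lay wholly in soft-masked repeats with many copies. At Olfr834 the level went from 93.7% to 88% over 5 CpGs, at Olfr18 from 91.4% to 88.4% over 4 CpGs, and at Olfr924 from 91% to 87.9% over 9 CpGs. They had 3757, 2904 and 5197 copies by the same measure. No WGBS loss at these loci lay outside such repeats.

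The 33 5hmC losses took the mean 5hmC level from 10.3% in Cre- to 2.06% in Tet tcKO, so that 20% of the Cre- level was kept. Over the 5hmC losses of all protein-coding loci it went from 17% to 4.12%, with 24.3% kept. At the other Olfr loci it went from 10.8% to 2.26%, and at the vomeronasal receptors from 9.56% to 2.03%. At the other protein-coding loci in the members' range of CpG density it went from 15.3% to 3.05%, with 19.9% kept. The paper reports failed conversion of unmodified cytosines in bACE-seq at a rate close to the members' Tet tcKO mean. No such floor was subtracted here, and how much of the kept level was 5hmC was not tested. Among the members the Cre- level ran from 2.76% to 29.9% with a median of 8.48%, and the Tet tcKO level from 0.116% to 7.64% with a median of 1.17%. The change was at least 5 points in 25 of the 33 and at least 10 points in 8.

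**Figure D4:**
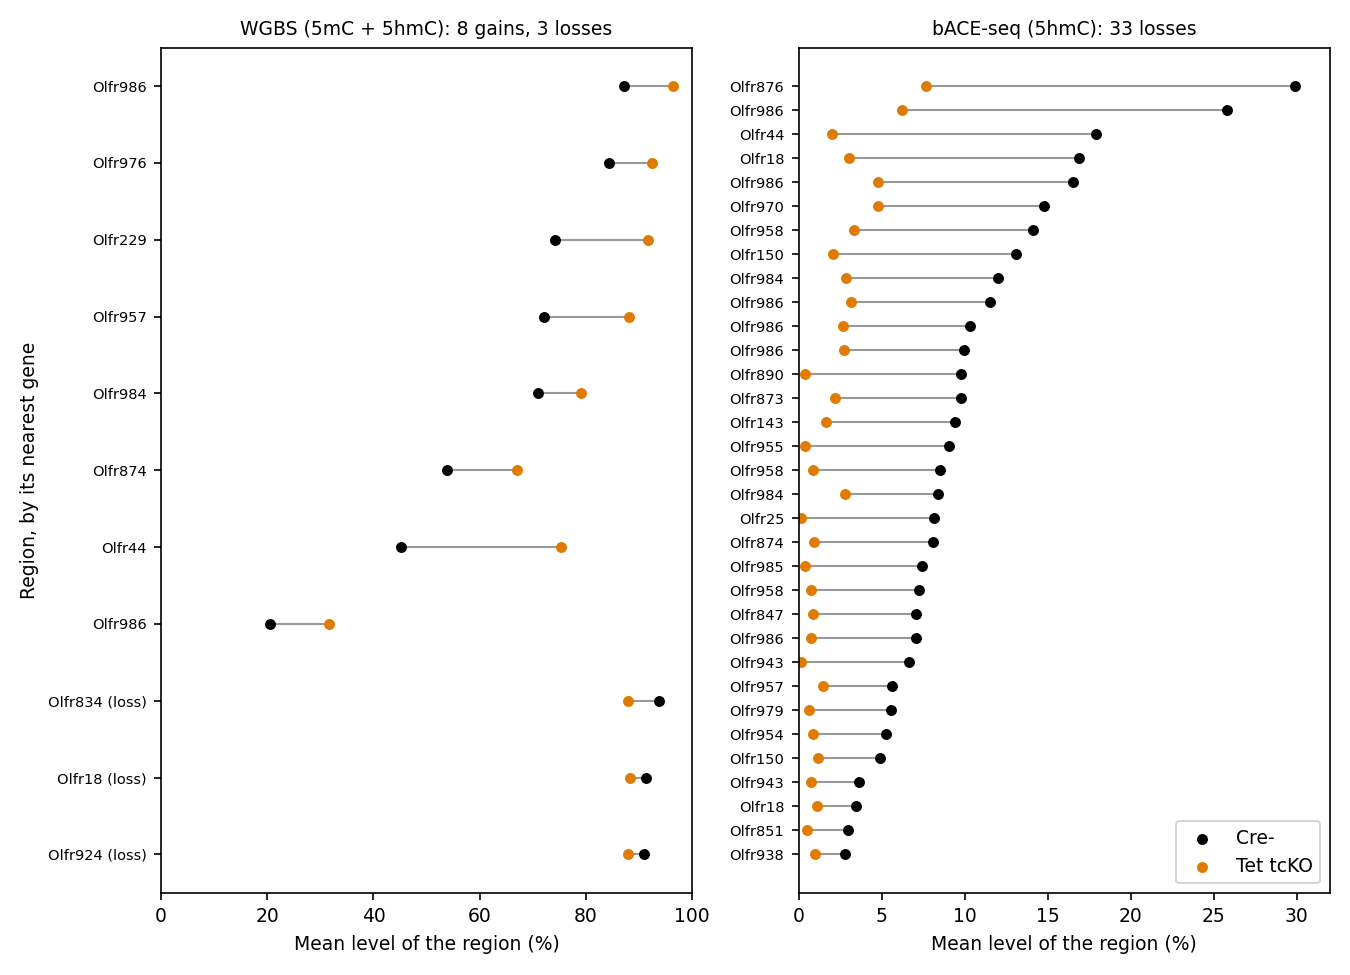
Each line joins the Cre- (black) and Tet tcKO (orange) group mean of 1 region, in percent, for the WGBS regions (left) and the bACE-seq regions (right); rows are named by the nearest gene, and the deposited means have no error. The 8 WGBS gains start between 20.5% and 87.2%, and the 33 5hmC losses start between 2.76% and 29.9%.

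The highest Cre- level was at Olfr876, 723 bp upstream of the gene, where 5hmC went from 29.9% to 7.64% over 4 CpGs. Olfr958 had the largest share of CpGs in 5hmC losses, 30.5% of 82 CpGs, in 3 regions. The longest of them, 1074 bp over the 3′ end of the gene, went from 8.48% to 0.839% over 14 CpGs. The others lay 221 bp and 2917 bp upstream and went from 14.1% to 3.32% and from 7.22% to 0.757%. Olfr986 had 6 such regions, 3 within the gene and 3 downstream of it. Next by share were Olfr984 with 18.9%, Olfr874 with 17% and Olfr150 with 13.9%. At Olfr150 a region 835 bp upstream went from 13.1% to 2.03%, and one downstream, in a repeat with 555 copies, from 4.91% to 1.17%.

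Without the flanks, 10 of the 132 gene bodies (7.58%) had a CpG in a region of either list, against 84.7% of all protein-coding gene bodies. These bodies were not matched for length. The shares were largest in Olfr958 with 29.4% of its CpGs, Olfr979 with 26.9%, Olfr847 with 26.7%, Olfr955 with 22.7% and Olfr986 with 20%. Coding exons held 710 CpGs at 5.73 per kb, of which 3.8% lay in 5hmC losses and none in WGBS gains. Introns, with 3.5 CpGs per kb, had 2.82% in 5hmC losses. Those 39 intron CpGs include the 17 reference CpGs of the Olfr18 intron region, which lists only 4. The share was highest within 1 kb downstream of the genes, with 5.74%, and was 3.72% within 1 kb upstream and 1.99% in UTRs. Of the 33 5hmC losses, 5 touched a coding exon, 2 lay in a 3′ UTR, 5 in an intron, 10 upstream and 11 downstream.

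In the coding exons printed above, 5hmC went from 5.54% to 0.595% at Olfr979, from 7.05% to 0.741% at Olfr986 and from 7.08% to 0.875% at Olfr847. The Olfr984 exon went from 8.39% to 2.78% over 9 CpGs and the edge of the Olfr18 exon from 16.9% to 3% over 4 CpGs. Coding sequences of these receptors resemble each other, with a median identity of 88.3% to the closest other gene. The exon regions of Olfr847 and Olfr979 had 1 and 2 copies elsewhere, with at most 95.3% and 97.6% identity, and those of Olfr984, Olfr986 and Olfr18 had none. In all, 22 of the 33 5hmC losses had no copy, and leaving out regions with one left 14 loci with a 5hmC loss and 1.93% of CpGs inside.

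Promoters were nearly without CpGs. In the 250 bp before and 50 bp after the annotated start, 48 of 132 members (36.4%) had no CpG and 120 (90.9%) had fewer than 3, the smallest number the caller accepted, against 5.21% and 19.9% of all protein-coding genes. A WGBS gain overlapped 1 promoter window, that of Olfr976, which held 8 CpGs. The 5hmC losses overlapped 2 windows, those of Olfr954, which held 4 CpGs, and Olfr958, which held 1. These numbers count the whole window, and how many of its CpGs lay inside the region was not counted. A region can extend past this window, so fewer than 3 CpGs in it did not prevent a call. Among all protein-coding promoters 8.77% had a WGBS gain and 20.8% a 5hmC loss.

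A list of 20 genes of olfactory signalling and of receptor gene choice was set beside the receptors. Of these, 18 had a WGBS gain, 20 a 5hmC loss and 2, Ldb1 and Lhx2, a WGBS loss. Among all protein-coding loci 76.8%, 88.3% and 4.9% had them, so most of any such list would have a gain and a 5hmC loss. Their median share of CpGs was 9.23% in WGBS gains and 45.6% in 5hmC losses, against 6.18% and 37.2% over all protein-coding loci and 0 over the members. Omp, the olfactory marker protein of mature olfactory neurons, had 23% and 69.1%. Adcy3, the adenylyl cyclase downstream of the receptors, had 7.79% and 57.1%. Cngb1, a subunit of cyclic nucleotide-gated channels that rods also use, had the highest share in 5hmC losses with 79.7%, and its WGBS gains went from 47.8% to 73.6%. Cnga2, the channel subunit of olfactory neurons, lies in sequence almost as poor in CpGs as the receptors, 4.9 per kb, and had 7.19% and 5.76%. Emx2, a homeobox gene with the densest CpGs of the list at 31.9 per kb, had no WGBS gain and 0.923% in 5hmC losses.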

How the data were processed

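Genomic DNA of 12 whole-retina libraries was profiled by WGBS and bACE-seq. Per the study's methods and the submitters' processing notes, the authors trimmed reads with Trim Galore (0.4.4), aligned them to mm10 with Bismark (0.18.2), handled alignments with SAMtools (1.15.1) and duplicates with Picard, extracted CpG levels with MethylDackel (0.6.1) and called DMRs with DSS using smoothing, p under 0.01, at least 3 CpGs and 50 bp, merging within 50 bp. For each group and region the authors deposited a mean level as a fraction, given here in percent. Their area statistic, a deposited score, served only to rank regions. The deposited difference column (Cre- minus Tet tcKO) was not used: changes are Tet tcKO minus Cre- from the group means, with the group order taken from the names of the lists.

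CpGs were counted in GRCm38, with overlapping loci joined, and levels were weighted by listed CpGs. The listed and reference CpG numbers were equal in all WGBS regions and in 32 of 33 5hmC losses of the members. Copies of regions were sought with blastn (2.17.0). Other steps used Python (3.11.15), numpy (2.4.6) and pandas (2.3.3), and the counting code was checked on simulated data. Coverage and replicate spread are not in group means and were not analysed here, so depth is unknown and no test was run. Named were the 10 loci with the largest share of CpGs in WGBS gains (only 7 had any), the 5 in 5hmC losses, loci with a WGBS loss, the 5 bodies with the largest share, the 3 loci with the most CpGs and no region, and the ends of the clusters. The members and lists were chosen with earlier results of these data known, and the promoter windows, the search for copies and the count between loci were added after seeing the data.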

Additional observations from a re-analysis of the deposited data

How the results depend on the processing

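No paired analysis was possible because the deposited lists hold group means only, and for the same reason leaving out single libraries was not run. Of 89 alternative values for 9 results, 58 stayed within the interval or spread set for the result and 31 did not. For shares and levels this was a 95% binomial interval that takes CpGs as independent, which CpGs of the same region are not. For counts of loci it was a 1.5-fold window in each direction. The tally therefore only sorts the alternatives and does not measure spread between libraries. The share of CpGs in WGBS gains (0.516%) was 0.303% in the genes alone, 0.281% with changes of at least 10 points, 0.113% counted in bases, 0.287% as the mean over loci and 0.35% without Olfr986. The share in WGBS losses (0.211%) was 0.121% in the genes alone, 0.075% with a 2 kb flank, 0.0161% in bases, 0.106% as the mean over loci, and 0 with changes of at least 10 points or without regions that have copies. The share in 5hmC losses (2.75%) was 0.785% with at least 10 CpGs, 0.469% with changes of at least 10 points, 2.16% at loci without another gene, 0.527% in bases, 1.91% as the mean over loci, 1.93% without regions that have copies and 2.29% without Olfr986. Loci with a WGBS gain (7) numbered 2 in the genes alone, 4 with a 2 kb flank and 13 with 10 kb. Loci with a 5hmC loss (23) numbered 9 in the genes alone, 46 with 10 kb, 5 with at least 10 CpGs, 6 with changes of at least 10 points and 14 without regions that have copies. With at least 10 CpGs no WGBS gain or WGBS loss was left, so both shares and the loci with a gain were 0 and the gains had no level. The WGBS level of Tet tcKO over the gains (78.4%) was 89.7% with a 2 kb flank, and the 5hmC level of Cre- (10.3%) was 20.5% with changes of at least 10 points. The alternatives without copies, without Olfr986 and without regions that list fewer CpGs than the reference were chosen after seeing the data. These numbers rest on 44 short regions, and neither coverage nor the power to call a region with few CpGs is known.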

Other observations

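Between the loci, more than 5 kb from any member but inside the 2 clusters, lay 7 WGBS gains (Cre- 71.9%, Tet tcKO 82.4%), 5 WGBS losses (92% and 84.9%) and 52 5hmC losses over 428 CpGs (7.9% and 1.48%). Of these 5hmC losses, 9 lay in another annotated gene, among them 3 in Zfp317, where the one with the most CpGs (17) went from 22.7% to 6.55%. The gain with the largest change between loci, nearest to Olfr39, went from 55.4% to 87.7% over 4 CpGs.

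The 5hmC loss in the intron of Olfr18 lists 4 CpGs over 761 bp where the reference has 17, all of it soft-masked as repeat with 1441 copies. It overlaps the WGBS loss of the same intron.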
